A study of Mus musculus with 9 samples.

Results

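Zinc finger genes named Zfp or Zbtb, together with the Zfpm genes, accounted for 25 of the 1810 RING1B peaks called in Eed-/- mouse embryonic stem cells (mESCs) and for 33 of the 2347 peaks called in Eed+/+ mESCs. Peaks were chosen by name alone: the gene that the authors assigned to the peak starts with Zfp or Zbtb and a digit, or with Zfpm. The 58 peaks carried 33 gene names, 23 of them in the Eed-/- list and 27 in the Eed+/+ list. The assigned gene is the nearest one and need not be the gene that RING1B regulates.

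RING1B was mapped by chromatin immunoprecipitation and sequencing in Eed-/- mESCs, which lack the PRC2 core subunit EED, and in Eed+/+ mESCs, both labelled C57BL/6 and grown with leukaemia inhibitory factor and serum. The labels number 3 Eed-/- RING1B samples, 1 Eed+/+ RING1B sample and 3 Eed+/+ input samples, and 1 CBX7 sample of each genotype was not analysed here. The Eed-/- samples, called replicates in the labels, were sequencing lanes, and the lists hold 1 call per genotype, from 70343706 mapped tags for Eed-/- and 16814546 for Eed+/+. There is therefore no replicate error, no test between the genotypes was possible, and the 95% intervals given (exact, Clopper-Pearson) cover counting error only.

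C2H2 zinc fingers are small zinc-holding folds that read DNA bases, and genes that carry many of them in tandem form one of the largest families of transcription factors in mammals. A subset with a BTB domain (Zbtb) can pair and recruit co-repressors, whereas the Zfpm proteins (Friend of GATA, FOG) bind GATA factors rather than acting mainly through DNA. RING1B is the ubiquitin ligase of Polycomb repressive complex 1 (PRC1), which marks histone H2A at CpG islands of silent developmental genes, and PRC2 places the H3K27me3 mark that some PRC1 complexes bind.

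The DNA under the peak summits is shown for 8 of these sites to set out the CG content and the place in the gene of sites called in both genotypes and in a single one. Each line gives 120 bp of the mm9 + strand around the summit of the deposited peak, with every CG dinucleotide in capitals.
Zbtb16, Eed-/- summit of a site called in both genotypes, intron, chr9:48643278-48643397: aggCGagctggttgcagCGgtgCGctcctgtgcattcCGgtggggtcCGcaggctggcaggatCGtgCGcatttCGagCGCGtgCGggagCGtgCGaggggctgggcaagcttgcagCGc
Zfp703, Eed-/- summit of a site called in both genotypes, coding exon, chr8:28089928-28090047: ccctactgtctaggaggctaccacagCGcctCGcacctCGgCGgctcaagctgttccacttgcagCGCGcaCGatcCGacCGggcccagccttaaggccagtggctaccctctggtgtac
Zfpm2, Eed-/- summit of a site called in both genotypes, upstream of the gene, chr15:40486370-40486489: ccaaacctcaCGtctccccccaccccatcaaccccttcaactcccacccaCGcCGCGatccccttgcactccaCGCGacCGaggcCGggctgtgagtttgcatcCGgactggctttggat
Zfp697, Eed-/- summit of a site called in both genotypes, coding exon, chr3:98232156-98232275: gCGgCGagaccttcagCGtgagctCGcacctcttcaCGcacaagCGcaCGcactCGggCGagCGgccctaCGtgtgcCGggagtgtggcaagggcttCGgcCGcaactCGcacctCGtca
Zfp36l2, site called in Eed-/- only, coding exon, chr17:84586005-84586124: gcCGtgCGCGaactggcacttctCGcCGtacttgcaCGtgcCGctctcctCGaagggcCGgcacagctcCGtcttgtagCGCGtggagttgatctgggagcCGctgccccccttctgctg
Zfp362, site called in Eed-/- only, intron, no island, chr4:128470207-128470326: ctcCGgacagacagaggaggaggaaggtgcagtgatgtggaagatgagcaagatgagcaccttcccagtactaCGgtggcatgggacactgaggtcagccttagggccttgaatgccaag
Zfp316, site called in Eed+/+ only, coding exon, chr5:144015490-144015609: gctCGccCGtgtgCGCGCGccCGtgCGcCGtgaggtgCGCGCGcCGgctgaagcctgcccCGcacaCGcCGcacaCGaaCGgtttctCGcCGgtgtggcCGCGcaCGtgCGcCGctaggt
Zfp36l3, site called in Eed+/+ only, coding exon, no island, chrX:51078002-51078121: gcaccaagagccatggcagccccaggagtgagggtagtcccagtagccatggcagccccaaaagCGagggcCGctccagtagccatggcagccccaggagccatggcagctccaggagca

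The windows at *Zbtb16*, *Zfp703*, *Zfpm2* and *Zfp697* held 14, 9, 9 and 16 CG dinucleotides. These 4 sites were called in both genotypes. Among the sites of a single genotype shown, the *Zfp36l2* window held 13 CG and the *Zfp316* window 24. The *Zfp362* and *Zfp36l3* windows, neither of which lay in a peak with a CpG island, held 2 each. A count of 2 was the lowest of the zinc finger windows in either list. At *Zfp503*, a site called in both genotypes and also without an island held 9 in Eed-/- and 9 in Eed+/+. At least 1 CG (letters CG, the same on both strands) stood in all 25 Eed-/- and all 33 Eed+/+ windows at zinc finger genes, against 98.2% of the windows at all other Eed-/- peaks and 99.5% at all other Eed+/+ peaks. The median number of CG per window was 13 at the Eed-/- zinc finger peaks and 11 at the other Eed-/- peaks, and 9 at the Eed+/+ zinc finger peaks and 11 at the other Eed+/+ peaks.

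About as large a share of zinc finger peaks as of other peaks was found in a single genotype. Of the 25 Eed-/- peaks, 6 overlapped no Eed+/+ peak (24%, 95% CI 9.36 to 45.1), against 26.95% of the 1785 other Eed-/- peaks and a background of 26.9% over the whole list. Of the 33 Eed+/+ peaks, 15 overlapped no Eed-/- peak (45.5%, 28.1 to 63.7), against 46.9% of the 2314 other Eed+/+ peaks, and the background over the whole list was also 46.9%. An overlap of 1 bp counted as shared. By gene name, 17 of the 33 genes appeared in both lists (51.5%), 6 in the Eed-/- list only (18.2%) and 10 in the Eed+/+ list only (30.3%). The 2295 other names were split 50.7%, 17.5% and 31.8% in the same order. In both lists the share of the other peaks lay within the interval of the zinc finger share, which is wide at 25 and 33 peaks.

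Levels are given as tags per kb of peak width for each 1000000 mapped tags, without subtraction of input. The scaled level had a median of 1.20 in the 25 Eed-/- peaks (lowest 1.01, highest 2.22) and 4.92 in the 33 Eed+/+ peaks (lowest 2.31, highest 12.5). On this scale the ranges of the genotypes did not overlap at these genes. Those of all other peaks did (0.849 to 7.01 in Eed-/- and 1.78 to 22.4 in Eed+/+), but a range widens with the number of peaks. The quartiles of the other peaks stood apart as well (1.17 to 1.52 in Eed-/- and 3.65 to 6.63 in Eed+/+), so the separation was not particular to zinc finger genes. Unscaled, the tags per kb of zinc finger peaks overlapped, with 70.9 to 156.3 in Eed-/- lying inside 38.9 to 210.2 in Eed+/+. Both lists hold only peaks of more than 100 tags, and the Eed-/- library was 4.18 times as deep, so that a site of low level could enter the Eed-/- list alone.

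**Figure D1:**
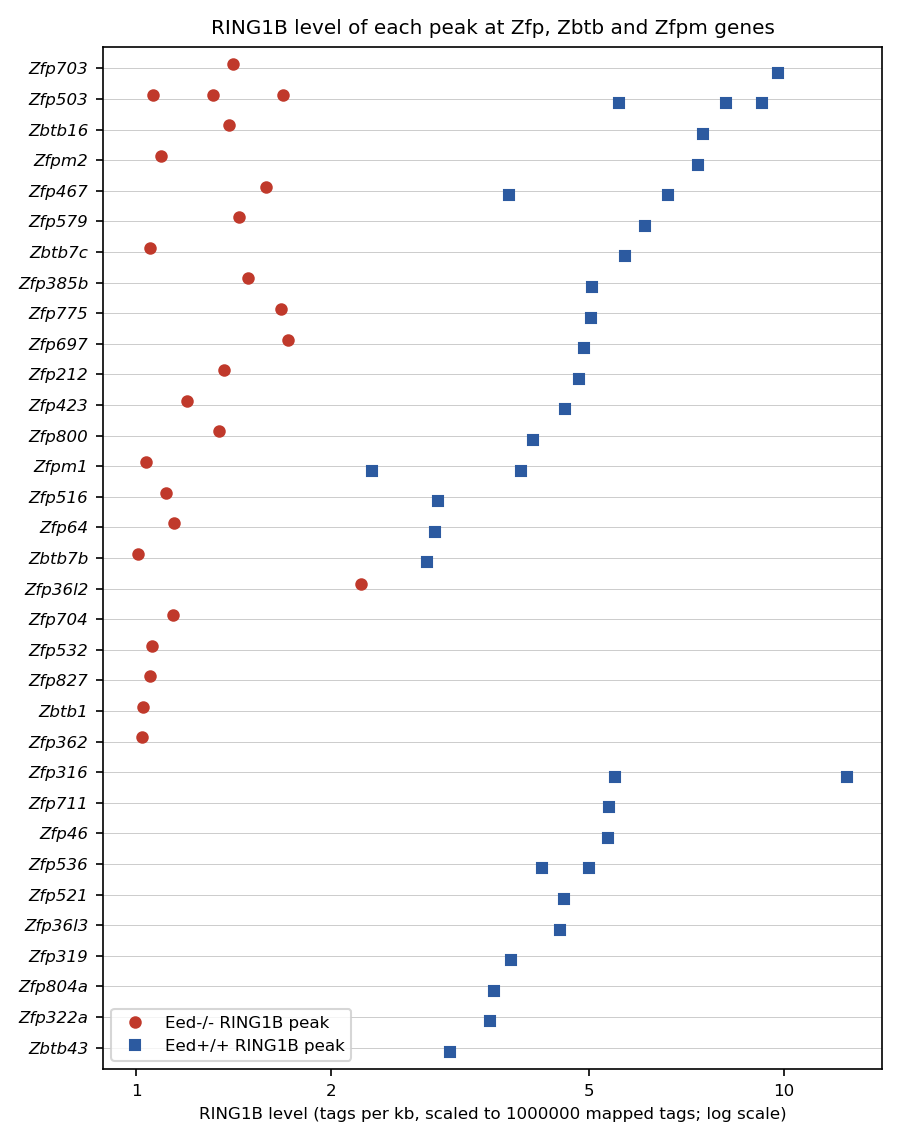
RING1B level of each of the 58 peaks (x axis, tags per kb scaled to 1000000 mapped tags, log scale) by gene (y axis), with Eed-/- peaks as red circles and Eed+/+ peaks as blue squares. Genes called in both genotypes stand above those called in Eed-/- only and in Eed+/+ only, and all Eed-/- peaks, at most 2.22 (*Zfp36l2*), lie left of the lowest Eed+/+ peak at 2.31 (*Zfpm1*), a separation that rests on the scaling, since unscaled tags per kb ran from 70.9 to 156.3 in Eed-/- and from 38.9 to 210.2 in Eed+/+.

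Of the 5 *Zbtb* names in the lists, 3 had peaks in both genotypes. *Zbtb16*, which encodes PLZF, a repressor needed in germline stem cells and innate-like T cells, had the zinc finger peak of highest fold enrichment in each list. Its Eed-/- peak (chromosome 9, 48642435 to 48645043, mm9) held 255 tags (8.72-fold enriched, level 1.39), against 580 tags (54.2-fold enriched, level 7.51) in the Eed+/+ peak, which ran from 48641245 to 48645840. By fold enrichment these were the 62nd and the 46th peak of their lists. The summits lay 7 bp apart in an intron of the gene, next to its 5′ end, on the sequence shown above. *Zbtb7b*, which encodes ThPOK, a factor that directs T cells to the CD4 lineage, had a level of 1.01 in Eed-/- and 2.82 in Eed+/+ mESCs, the lowest Eed-/- level of any zinc finger peak. Its paralogue *Zbtb7c* had levels of 1.05 in Eed-/- and 5.69 in Eed+/+ mESCs, with peaks of 3122 bp and 3270 bp over the same start site. The ratio of Eed-/- to Eed+/+ level was thus 0.358 at *Zbtb7b* and 0.185 at *Zbtb7c*.

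*Zbtb1*, which encodes a factor of lymphocyte development, had a peak in Eed-/- mESCs only (250 tags, fold enrichment 4.71, level 1.02). This peak covered the start sites of both *Zbtb1* and *Zbtb25*, and the nearest Eed+/+ peak was 31458 bp away. *Zbtb43* was named in the Eed+/+ list only, by a peak of 128 tags at a fold enrichment of 6.4 that lay 74541 bp from the gene. Neither list had a peak within 1 kb of a start site of *Zbtb43*.

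Both GATA cofactor genes had peaks in both genotypes. *Zfpm2* encodes FOG2, a partner of GATA4 in heart development. Its Eed-/- peak held 164 tags (7.52-fold enriched, level 1.09), against 282 tags (30.9-fold enriched, level 7.37) in Eed+/+, and the widths were close (2135 bp and 2276 bp). *Zfpm1*, which encodes FOG1, a partner of GATA1 in red cells and megakaryocytes, had lower fold enrichments of 4.10 in Eed-/- and 9.61 in Eed+/+ at the 5′ part of the gene. There the Eed-/- peak was the wider, at 4017 bp against 3152 bp, and reached further into the first part of the gene, with the summits 1215 bp apart. A second Eed+/+ peak assigned to *Zfpm1* lay 48418 bp upstream and had the lowest level of all Eed+/+ zinc finger peaks (2.31, fold enrichment 6.23), the nearest Eed-/- peak being 49095 bp away.

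The 2 CCCH genes in the lists, whose zinc fingers bind AU-rich elements of mRNA and promote its decay, were each called in a single genotype. *Zfp36l2* had an Eed-/- peak (chromosome 17, 84584924 to 84586676) with 274 tags, enriched 6.03-fold. Its level of 2.22 was the highest Eed-/- level among zinc finger genes and the 38th of the 1810 peaks. It covered 1401 bp of coding sequence and a start site of this short gene, and the nearest Eed+/+ peak was 552463 bp away. *Zfp36l3*, a placental gene of rodents on the X chromosome, had an Eed+/+ peak with 187 tags, 16.2-fold enrichment and a level of 4.52, which covered 2175 bp of its coding sequence and no CpG island. No peak carried the names *Zfp36* or *Zfp36l1*, the other 2 members of this list of 4.

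Of 21 zinc finger genes listed for roles in stem cells, imprinting, brain or fat, 9 were named in either list. Of all 406 annotated genes of the naming rule, 33 were. The list of 21 was chosen with earlier results of these data known, so its share describes that list only. Of these 9, 5 were called in both genotypes (*Zfp423*, *Zfp467*, *Zfp503*, *Zfp516* and *Zfp703*), 1 in Eed-/- only (*Zfp704*) and 3 in Eed+/+ only (*Zfp521*, *Zfp536* and *Zfp804a*). The pluripotency-associated gene *Zfp42* (REX1) and the imprinting factor gene *Zfp57* were among the 12 not named in either list.

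*Zfp703* and *Zfp503* encode related transcriptional repressors, of which *Zfp503* (Nolz1) acts in the developing striatum and human ZNF703 is amplified in breast cancer. *Zfp703* had the widest Eed-/- zinc finger peak, 4399 bp (chromosome 8, 28086452 to 28090850), which held 437 tags (4.37-fold enriched, level 1.41). The Eed+/+ peak (28086348 to 28091459) held 843 tags (41.2-fold enriched, level 9.81). Both peaks ran from upstream of the start site over 1905 bp of coding sequence. The ratio of the levels, 0.144, was the second lowest of the zinc finger pairs.

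*Zfp503* (chromosome 14, 22803184 to 22808823, − strand) was the zinc finger gene with the most peaks, 3 in each genotype. In Eed-/- mESCs the gene was covered by peaks from 22803930 to 22807495 (423 tags, level 1.69) and from 22807513 to 22809277 (163 tags, level 1.31) next to it. In Eed+/+ mESCs a single peak from 22803319 to 22811289 covered both, with 1239 tags, 34.6-fold enrichment and a level of 9.24, and its 7971 bp made it the widest zinc finger peak. At the 3′ end of the gene, off any CpG island, a peak that lay outside the gene in Eed-/- and reached its last bases in Eed+/+ had a level of 1.06 in Eed-/- and 8.14 in Eed+/+. This was the lowest ratio of the zinc finger pairs (0.130), with summits 8 bp apart. Upstream, an Eed+/+ peak from 22812386 to 22815183 (262 tags, level 5.57) had no Eed-/- counterpart.

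**Figure D2:**
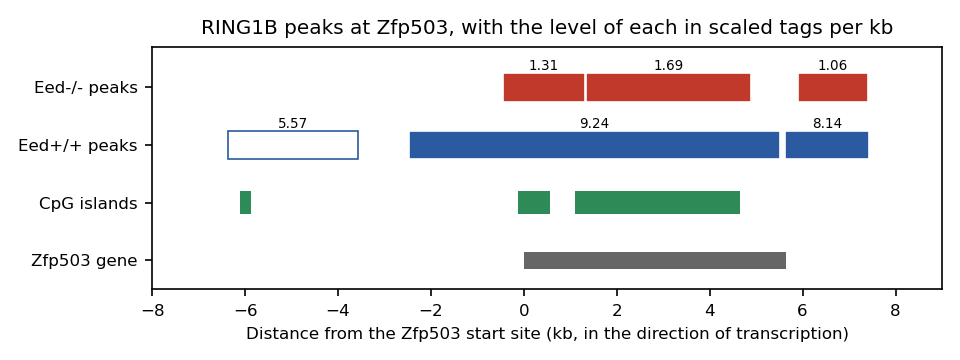
RING1B peaks at *Zfp503* in Eed-/- (red, upper row) and Eed+/+ mESCs (blue), CpG islands (green) and the gene (grey) by distance from the start site in kb (x axis), with the level of each peak in scaled tags per kb above it. The filled boxes have an overlapping peak in the other row and the open box, the upstream Eed+/+ peak of level 5.57, does not; the single Eed+/+ peak of level 9.24 spans 2 Eed-/- peaks of levels 1.31 and 1.69.

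*Zfp423*, a zinc finger partner of EBF factors that acts in preadipocytes and the cerebellum, had levels of 1.20 in Eed-/- and 4.59 in Eed+/+ mESCs. Its peaks ended 342 bp and 138 bp upstream of the gene. Its homologue *Zfp521* had a peak in Eed+/+ mESCs only (120 tags, fold enrichment 28.2, level 4.58), in an intron 1682 bp from the start site. *Zfp516*, which acts in brown fat, had levels of 1.11 in Eed-/- and 2.93 in Eed+/+ (fold enrichments 5.55 in Eed-/- and 9.93 in Eed+/+), and *Zfp467*, which acts in the choice between bone and fat cells, had 1.59 in Eed-/- and 6.62 in Eed+/+ over its coding exons. The start site of *Zfp467* itself carried an Eed+/+ peak (227 tags, level 3.76) that no Eed-/- peak overlapped.

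The other described genes were called once. *Zfp536*, a neuronal zinc finger gene, had 2 adjacent Eed+/+ peaks (270 and 184 tags, fold enrichments 27.1 and 21.1), the nearest Eed-/- peak being 2646767 bp away. *Zfp804a*, whose human counterpart is associated with schizophrenia, had an Eed+/+ peak over its start site with 173 tags and a fold enrichment of 32.6. The only Eed-/- peak of the 9 genes without an Eed+/+ partner lay at the start site of *Zfp704*, with 159 tags and a fold enrichment of 5.21.

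Outside these lists, *Zfp212*, *Zfp385b*, *Zfp579*, *Zfp64*, *Zfp697*, *Zfp775* and *Zfp800* were called in both genotypes. Their levels ran from 1.14 (*Zfp64*) to 1.72 (*Zfp697*) in Eed-/- and from 2.89 (*Zfp64*) to 6.10 (*Zfp579*) in Eed+/+ mESCs. The *Zfp697* level in Eed-/- was the highest among zinc finger sites called in both genotypes, and its peak lay on a coding exon 44605 bp from the annotated 5′ end of the gene. Among the 7, fold enrichment in Eed-/- was highest at *Zfp385b* (7.35, against 12.5 in Eed+/+), over a start site of the gene, and next at *Zfp775* (6.22, against 17.3 in Eed+/+) and *Zfp697* (5.64, against 12.2 in Eed+/+). At *Zfp579*, where it was 3.55 in Eed-/-, it was 20.4 in Eed+/+, the highest Eed+/+ value of the 7. The peaks named for *Zfp212* and *Zfp775* lay outside those genes, in Eed-/- 13620 bp upstream of the 5′ end of *Zfp212* and 15533 bp downstream of the 5′ end of *Zfp775*, past its 3′ end. The *Zfp775* peak (189 tags and a level of 1.68 in Eed-/-, 136 tags and a level of 5.05 in Eed+/+) was within 1 kb of a start site of *AI854703*.

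The Eed-/- only sites were too few to set their share near start sites apart from that of other peaks. In the whole Eed-/- list, 84.0% of zinc finger peaks and 82.9% of the other peaks lay within 1 kb of a start site. All 6 Eed-/- only peaks (*Zbtb1*, *Zfp362*, *Zfp36l2*, *Zfp532*, *Zfp704* and *Zfp827*) lay within 1 kb of an annotated start site, against 79.0% of the 481 other Eed-/- only peaks. Their tags had a median of 163.5 (126 to 274), their fold enrichment 5.62 (3.79 to 6.83) and their level 1.06 (1.02 to 2.22). Of these levels, 5 were between 1.02 and 1.14, near the lower end of the list, and *Zfp36l2* alone stood above. *Zfp827*, whose human counterpart acts at telomeres, had the highest fold enrichment of the 6 (6.83, 126 tags, level 1.05), in an intron near its start. *Zfp532* came next, with 166 tags, 6.31-fold enrichment and a level of 1.06 over a start site of the gene. *Zfp362* had the lowest fold enrichment, 3.79, with 161 tags and a level of 1.02 in an intron 879 bp from the nearest start site.

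Of the 15 Eed+/+ only peaks, 6 lay within 1 kb of a start site (40.0%), against 70.5% of the 1085 other Eed+/+ only peaks. The 15 are few, *Zfp316* and *Zfp536* gave 2 each, so that they are not independent, and no test was run. The tags of the 15 peaks had a median of 184 (103 to 1087), their fold enrichment 13.2 (6.23 to 32.6) and their level 4.52 (2.31 to 12.5). *Zfp316* stood out by its tags: the Eed+/+ peak over its coding exon (chromosome 5, 144013322 to 144018492) held 1087 tags (22.4-fold enriched, level 12.5), the highest level of all zinc finger peaks and the 33rd of the 2347. It contained 2545 bp of coding sequence and an internal annotated start site 13209 bp or more downstream of the 5′ end of the gene, and the nearest Eed-/- peak was 35431 bp away. A second Eed+/+ peak named *Zfp316* (228 tags, level 5.49) lay 17410 bp upstream of the gene, 2344 bp from an Eed-/- peak of another name. *Zfp711*, an X-linked gene whose human counterpart is mutated in intellectual disability, had 163 tags, 32.1-fold enrichment and a level of 5.38 at its start site. *Zfp46* and *Zfp319* had peaks over their coding exons (levels 5.35 and 3.79), and *Zfp322a* was named by a peak 25914 bp from the gene (level 3.51).

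Each of the 18 Eed+/+ zinc finger peaks with an overlap was matched to the Eed-/- peak that shared most of its bases. The Eed-/- level was the lower in 18 of 18 pairs, as it was in 100% of the 1247 pairs of the whole series, so that this count says nothing particular about zinc finger genes. The median level was 1.36 in Eed-/- and 5.05 in Eed+/+ over these pairs, and 1.33 in Eed-/- and 5.78 in Eed+/+ over the 1229 other pairs. The median ratio of Eed-/- to Eed+/+ level was 0.263 at zinc finger genes (quartiles 0.185 and 0.331) and 0.225 at the other pairs (0.178 and 0.302). Both lie near 0.239, the inverse of the depth ratio, and the part that the tag minimum plays in this was not tested. Without scaling for depth the ratio at zinc finger genes was 1.10.

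The ratios at zinc finger genes ran from 0.130 to 0.395. The lowest were at *Zfp503* (the peak at its 3′ end), *Zfp703* and *Zfpm2*, all above a level of 7 in Eed+/+, and the highest were at *Zfp64*, *Zfp516* and *Zbtb7b*, all below a level of 3 in Eed+/+. The Eed-/- levels of the 18 pairs spanned 1.01 to 1.72 and the Eed+/+ levels 2.82 to 9.81. A ratio and its own denominator are not independent measures. The ratio of fold enrichments had a median of 0.245 at zinc finger genes and 0.248 at the other pairs.

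Eed-/- peaks were contained in their Eed+/+ partners in 13 of the 18 pairs (72.2%, 46.5 to 90.3), against 57.2% of the other pairs, and were the narrower in 15 of 18 (83.3%, 58.6 to 96.4) against 76.1%. The width ratio had a median of 0.850 at zinc finger genes and 0.831 elsewhere. The lowest width ratios were 0.447 at *Zfp503*, 0.487 at *Zfp467* and 0.568 at *Zbtb16*, and the Eed-/- peak was wider than its partner at *Zfpm1* and *Zfp212*. Summits stood within 500 bp of each other in 12 of 18 pairs (66.7%, 41.0 to 86.7), against 76.5% of the other pairs.

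Across the whole lists, zinc finger peaks had a median width of 2407 bp in Eed-/- (95% interval of the median 1986 to 3042), against 2151 bp for the other Eed-/- peaks. In Eed+/+ mESCs the medians were 2798 bp (2463 to 3270) at zinc finger genes and 2663 bp elsewhere. Unscaled tags per kb had a median of 84.2 (74.6 to 99.3) at Eed-/- zinc finger peaks against 93.0 at the other Eed-/- peaks, and of 82.6 (69.0 to 92.4) against 80.7 in Eed+/+. Each median of the other peaks lay within the interval of the zinc finger median. Fold enrichment had medians of 4.71 against 4.91 in Eed-/- and 17.3 against 16.2 in Eed+/+. An FDR of 1% or less was reached by 7 of 25 Eed-/- peaks (28%, against 24.0% of the others) and by 33 of 33 Eed+/+ peaks (99.9% of the others).

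**Figure D3:**
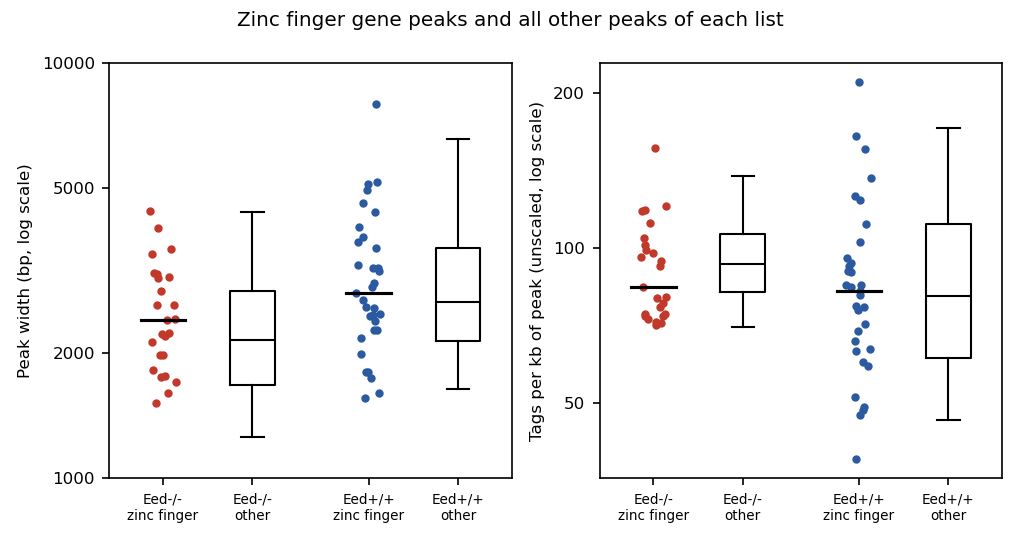
Width in bp (left, log scale) and unscaled tags per kb (right, log scale) of the zinc finger peaks (points, median as a line) and of all other peaks of the same list (boxes with median and quartiles, whiskers from the 5th to the 95th percentile), Eed-/- before Eed+/+. The medians stand close together within each list, for width 2407 bp at zinc finger genes and 2151 bp at other genes in Eed-/-, and 2798 bp and 2663 bp in Eed+/+.

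Start sites were under fewer of the zinc finger peaks than of the other peaks, by the wider margin in Eed+/+ mESCs. In Eed-/- mESCs, 16 of 25 zinc finger peaks held an annotated start site of any gene (64.0%, 42.5 to 82.0), against 77.25% of the other peaks, and 21 of 25 lay within 1 kb of one (84.0%, 63.9 to 95.5) against 82.9%. In Eed+/+ mESCs, 16 of 33 held a start site (48.5%, 30.8 to 66.5) against 76.4%, and 20 of 33 lay within 1 kb of one (60.6%, 42.1 to 77.1) against 79.6%. The Eed+/+ intervals did not reach the shares of the other peaks, but peaks of 1 gene are not independent and no test was run. Within 5 kb the shares were 92.0% against 89.75% in Eed-/- and 81.8% against 88.85% in Eed+/+.

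In relation to their own gene, 16 Eed-/- peaks lay over a start site (64.0%, against 66.2% of the other peaks), 5 elsewhere in the gene (20%, against 10.98%) and 4 outside it (16%, against 18.5%). Of the Eed+/+ peaks, 16 lay over a start site (48.5%, against 64.65%), 8 elsewhere in the gene (24.2%, 11.1 to 42.3, against 9.94% of the other peaks) and 9 outside it (27.3%, against 20.5%). The 8 included *Zfp46*, *Zfp319*, *Zfp467*, *Zfp697* and *Zfp36l3*, where the summit stood in a coding exon. A peak counted as over a start site only if it contained one, and some of the 8 were borderline. The *Zfpm1* and *Zfp36l3* peaks lay 36 bp and 42 bp from a start site of their gene. The *Zfp503* peak reached only the last bases of the gene, with its summit outside. Summits in a coding exon of the gene were not more frequent at zinc finger genes, at 6 of 25 in Eed-/- (24.0%, against 31.6% of the others) and 9 of 33 in Eed+/+ (27.3%, against 33.3%). Any coding sequence of the named gene was held by 10 of 25 Eed-/- peaks (40.0%, 21.1 to 61.3, against 59.4%) and 14 of 33 Eed+/+ peaks (42.4%, 25.5 to 60.8, against 59.8%). Within 1 kb of the outermost 5′ end of the named gene lay 14 of 25 Eed-/- peaks (56.0%, against 63.7%) and 15 of 33 Eed+/+ peaks (45.5%, against 60.3%).

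**Figure D4:**
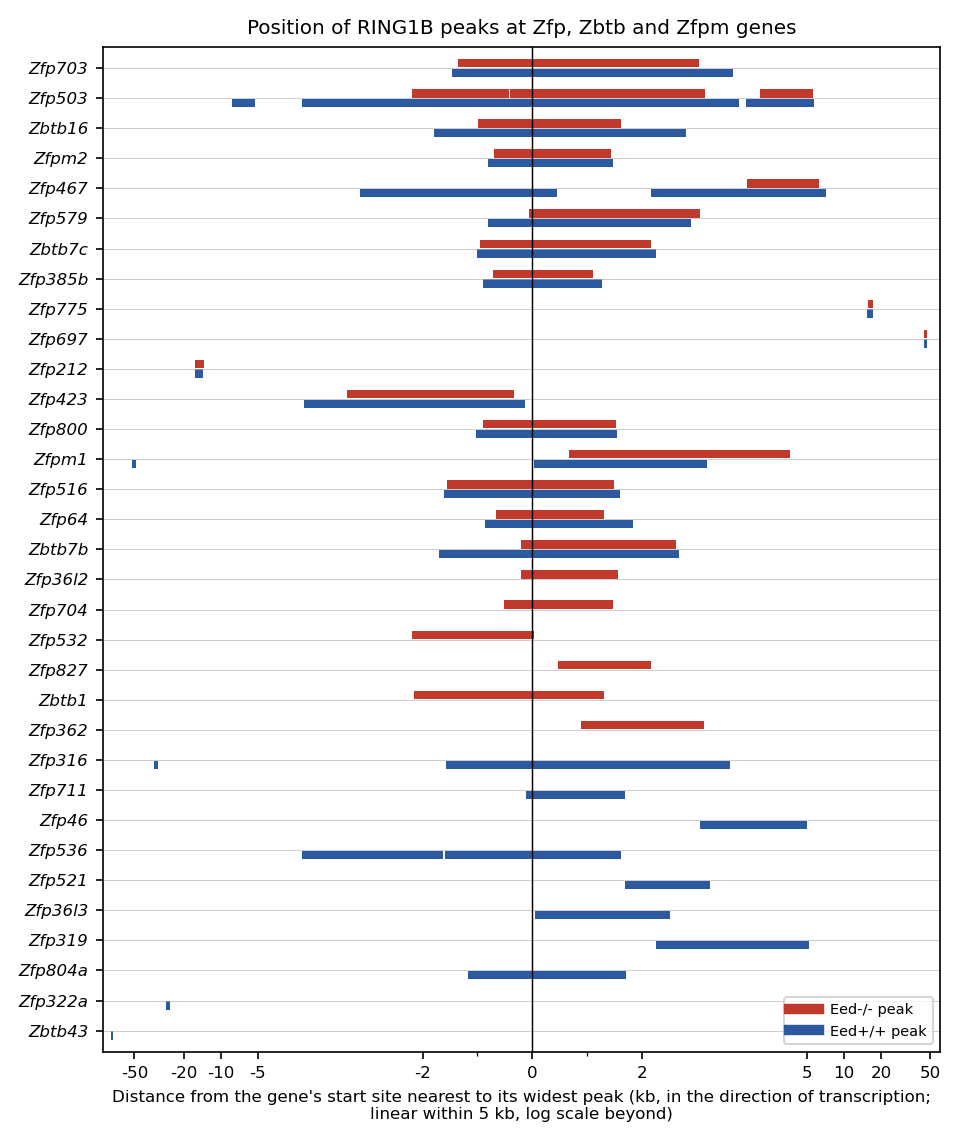
Position of each peak along its gene in the direction of transcription (x axis, kb from the start site nearest to the widest peak of that gene, linear within 5 kb and on a log scale beyond), with Eed-/- peaks in red above Eed+/+ peaks in blue. Peaks at *Zfp697*, *Zfp775*, *Zfp212*, *Zfp322a* and *Zbtb43* stand more than 10 kb from such a start site, as do 1 Eed+/+ peak each of *Zfpm1* and *Zfp316*.

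CpG islands, found by sequence in the same genome, underlay 23 of 25 Eed-/- zinc finger peaks (92.0%, 74.0 to 99.0) against 95.2% of the other peaks, and 31 of 33 Eed+/+ peaks (93.9%, 79.8 to 99.3) against 94.1%. The exceptions were *Zfp362* in Eed-/-, *Zfp36l3* in Eed+/+ and the *Zfp503* peak at the 3′ end in both. Median GC content was 61.8% at Eed-/- zinc finger peaks against 60.9% at the others, and 59.6% against 58.3% in Eed+/+.

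Like most protein-coding genes, most genes of the family had no peak at their start. Of 406 annotated protein-coding genes with such names, 23 (5.67%, 3.63 to 8.38) had an Eed-/- peak within 1 kb of a start site, against 6.67% of 21819 other protein-coding genes and a background of 6.65% over all genes. For Eed+/+ peaks the number was also 23 (5.67%), against 8.05% of other genes and a background of 8%. With either list counted, 30 genes had a peak (7.39%, 5.04 to 10.4), against 9.84% of other genes. A start site on a CpG island was more common in the family, at 58.4% against 51.4%, and among genes with such a site 26 of 237 zinc finger genes (10.97%, 7.29 to 15.7) had a peak in either list, against 16.05% of other genes.

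Subgroups of the family varied. A peak of either list was found within 1 kb of a start site at 7 of 37 Zbtb genes (18.9%, 7.96 to 35.2), at 21 of 367 Zfp genes (5.72%, 3.58 to 8.61) and at both Zfpm genes. A start site on a CpG island was found at 89.2% of the Zbtb genes and 55.0% of the Zfp genes, and *Zbtb1* and *Zbtb25* shared 1 peak. Among genes with 3 or more family members within 500 kb, the arrays in which many zinc finger genes arose by duplication, 3 of 164 (1.83%, 0.379 to 5.25) had a peak, against 27 of 242 genes with fewer such neighbours (11.2%, 7.48 to 15.8). Start sites on islands were also fewer in the arrays, at 42.1% against 69.4%.

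Genes with a peak had a lower median number of C2H2 fingers than genes without one. The finger pattern searched (a cysteine, 2 to 4 residues, a cysteine, 12 residues, a histidine, 3 to 5 residues, a histidine, without overlap) occurred a median of 4.5 times in the 30 genes with a peak (quartiles 2.25 and 9.75) and 9 times in the 376 genes without one (5 and 13). Genes without a match counted as 0 in both groups. They included *Zfp36l2*, *Zfp36l3*, *Zfp503* and *Zfp703* with a peak, and *Zfp36* and *Zfp36l1* without one. At least 10 fingers were encoded by 8 of 30 genes with a peak (26.7%) and by 49.7% of those without. This share was 13.0% (3 genes) among the 23 genes with an Eed-/- peak and 34.8% (8 genes) among the 23 with an Eed+/+ peak. These groups have genes in common, since 30 genes had a peak in either list. Among the 211 genes without a peak whose start site lay on an island the median was 8 and the share 37.4%, and among the 215 without a peak and outside the arrays the median was 7 and the share 33.95%. The Eed+/+ share was near these last shares of genes without a peak, whereas the Eed-/- share and that of the 30 genes were lower. Island content and clustering moved with the number of fingers. Subfamilies were not separated: 18.9% of Zbtb genes and 5.72% of Zfp genes had a peak in either list. The Zbtb genes with a peak encoded from 2 (*Zbtb25*) to 9 (*Zbtb16*) fingers, and *Zfpm1* and *Zfpm2* encoded 4 and 3. The part of islands, clustering and subfamily in the difference was not tested.

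**Figure D5:**
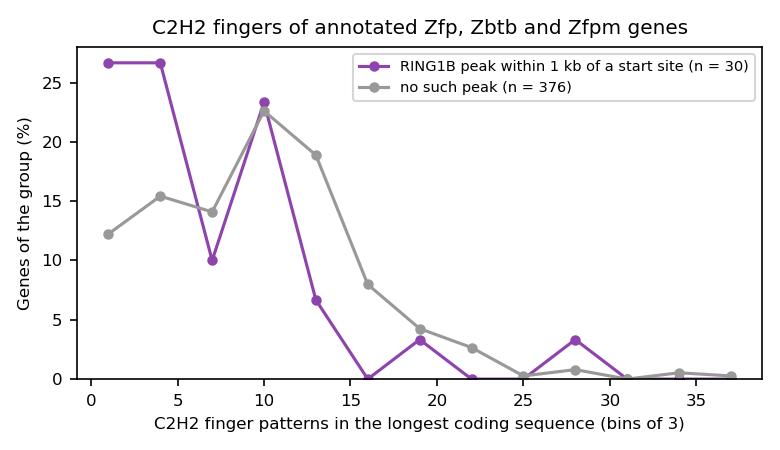
Share of annotated Zfp, Zbtb and Zfpm genes (y axis, percent of the group) by the number of C2H2 finger patterns in the longest coding sequence (x axis, bins of 3), for 30 genes with a RING1B peak of either genotype within 1 kb of a start site (purple) and 376 genes without (grey). The genes with a peak lie further left, with a median of 4.5 patterns against 9, and the Zfp, Zbtb and Zfpm subfamilies are not separated.

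Among zinc finger transcription factor genes outside the naming rule, a list of 82 genes such as *Zic*, *Klf*, *Egr* and *Gfi1*, 45 were named in either peak list. Of these, 29 were in both lists (64.4%), 3 in the Eed-/- list only (6.67%) and 13 in the Eed+/+ list only (28.9%). The 33 Zfp, Zbtb and Zfpm names were split 17, 6 and 10 (51.5%, 18.2% and 30.3%). All 2295 names other than those 33 were split 50.7%, 17.5% and 31.8%. That list was made of known regulators, so the shares describe it and not zinc finger genes at large.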

How the data were processed

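The authors mapped single-end tags to mm9 with bowtie (-m 1, unique positions), called peaks with MACS once per genotype at an FDR under 2% with more than 100 tags, and assigned the nearest gene with CisGenome. Tool versions and the control library of MACS were not given in the sources used here. The deposited values of a peak are a raw tag count, a fold enrichment ratio, an FDR in percent and a score on a log10 scale of the MACS p-value. The authors' overlap flags were not used and differed from the overlaps computed here at 0 peaks.

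Start sites came from GENCODE M1 on NCBIM37, the same build as mm9, which held all 33 member gene names. The search for CpG islands scored each CG 17 and any other dinucleotide −1, and kept 23765 stretches of at least 200 bp with 50% GC and 0.6 of the expected CG. Sequences were read from that genome. C2H2 patterns were counted in the translated longest coding sequence of each gene. Mapped tags came from the study's supplement. The members and lists were chosen with earlier results of these data known. Values are given for the role lists, for the 6 peaks of highest fold enrichment in each class (of each list, for sites called in both genotypes) and for genes with several peaks, while *Zfp46*, *Zfp212*, *Zfp319*, *Zfp322a*, *Zfp64* and *Zfp800* were named after their values were seen. No test was run, because each genotype has 1 call, and zinc finger peaks were set beside all other peaks of the same list. Alternatives changed the overlap, FDR, depth, distance, chromosomes, names and scaling. Overlap and island code was checked on simulated lists. Python 3.11.15, numpy 2.4.6, scipy 1.17.1, numba 0.67.0 and matplotlib 3.10.9 were used.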

Additional observations from a re-analysis of the deposited data

How the results depend on the processing

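Of 28 alternative settings, 23 left the value within its 95% interval and 5 did not. With only peaks whose tags would exceed 100 at the Eed+/+ depth, the share of Eed-/- zinc finger peaks without an Eed+/+ peak was 0% (0 of 2, against 15.25% of the other peaks). At a stricter FDR (1% or less, both genotypes), the share of Eed+/+ zinc finger peaks without an Eed-/- peak was 81.8% (27 of 33, against 84.65%), since 7 of 25 Eed-/- zinc finger peaks were left, and the median unscaled tags per kb of these 7 was 104.9 (105.4 at the other Eed-/- peaks). At 5 kb instead of 1 kb, 81.8% of Eed+/+ zinc finger peaks lay near a start site. The level ratio without scaling was 1.10.

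In an alternative chosen after seeing the data, only peaks in the named gene or within 5 kb of its start sites were kept. Of the Eed-/- zinc finger peaks, 26.1% were then found in a single genotype, against 25.02% of the other Eed-/- peaks. Of the Eed+/+ zinc finger peaks, 40.7% were, against 44.24% of the other Eed+/+ peaks. No paired analysis was possible because each list is 1 call per genotype. With 25 and 33 peaks, shares have wide intervals, and a site without a peak may hold RING1B below the threshold, which was not measured.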

Other observations

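The nearest-gene names miss some zinc finger genes. *Zbtb25*, *Zbtb42*, *Zbtb46*, *Zfp648* and *Zfp865* each had a start site within 1 kb of a peak that carries another name, over 8 peaks in all. At *Zbtb46*, named *BC050777* in the lists, the level was 1.74 in Eed-/- and 4.17 in Eed+/+ mESCs. At *Zbtb42*, under the name *Akt1*, it was 1.305 in Eed-/- and 5.96 in Eed+/+, and at *Zfp865* it was 1.65 in Eed-/- and 4.94 in Eed+/+. *Zfp648* had an Eed+/+ peak only, with 284 tags and a fold enrichment of 20.5, and the *Zbtb25* start site lay under the Eed-/- peak named for *Zbtb1*. Counted by start site, Zbtb genes with an Eed-/- peak numbered 7 of 37 (18.9%, 7.96 to 35.2), beside 6.65% of all protein-coding genes. Those with an Eed+/+ peak numbered 5 of 37 (13.5%, 4.54 to 28.8), beside 8%. The Zbtb genes that differed between the lists were *Zbtb1* and *Zbtb25*, which share 1 Eed-/- peak and are not independent. Genes with an Eed-/- peak at a start site encoded a median of 4 C2H2 fingers, and those with an Eed+/+ peak a median of 6. These groups have genes in common, so the medians are not independent.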
